A study of Mus musculus with 4 samples.

Results

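The 36 genes described here are induced by interferons and were chosen as a set of antiviral effectors, regulators, GTPases and other targets of interferon signalling. All 36 were found by symbol among the 32285 genes of both expression matrices, and all were used. They were measured in B220+ and CD138+ cells sorted from subcutaneous tumours of the mouse colon carcinoma line MC38. The recipients were C57BL/6 females, 12 to 16 weeks old. Control recipients carried the floxed alleles alone (Prdm1 f/f), and knockout recipients carried the same alleles with a cre recombinase transgene that is used to delete floxed alleles in the B lineage. The product of Prdm1, the repressor Blimp-1, is required to make plasma cells. Tumours of 11 recipients per genotype were collected on day 18 and pooled, and 1 expression library was made per genotype. The proportions in which the B220+ and CD138+ sorts were mixed are not given in the sources used here, so cell numbers are not compared.

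Interferons are secreted alarm proteins. Type I interferons bind a receptor made of Ifnar1 and Ifnar2 and act through a factor that contains Stat2 and Irf9 and binds the interferon-stimulated response element (ISRE) in promoters. Interferon gamma, made mainly by NK and T cells, binds Ifngr1 and Ifngr2 and acts at the gamma-activated site (GAS). Plasmacytoid dendritic cells are known as strong producers of type I interferon, and tumour macrophages as strong responders to both.

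No expression value enters the promoter letters themselves. The members, however, were chosen as interferon-induced genes with earlier results of these data known, so their share of such letters is a description. RefSeq promoters (GRCm38.p6, from 250 bases before to 50 bases after the gene start) were held for 29 of the 36 members. The ISRE letters, searched on both strands as GAAA, any 2 bases and GAAA again, were present in 19 of the 29 (65.5%), against 3.99% of 27025 genes. The GAS letters, TTC, any 3 bases and GAA, which read the same on both strands, were present in 9 of the 29 (31.0%), against 9.55% of genes. Either set of letters was present in 23 members (79.3%), against 12.9% of genes. A match describes the letters only and is no evidence of a bound site. The runs below belong to members that the later comparisons turn on. They are written 5′ to 3′ on the strand of the gene, with the matching letters in capitals; overlapping matches share 1 run of capitals.

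Isg15, chr4:156200860-156200911, minus strand, 3 overlapping ISRE matches: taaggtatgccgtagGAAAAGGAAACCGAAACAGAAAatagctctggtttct
Ifit1, chr19:34640770-34640828, plus strand, 2 ISRE matches: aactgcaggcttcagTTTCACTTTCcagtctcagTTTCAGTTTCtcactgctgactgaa
Ifit3, chr19:34583358-34583431, plus strand, 2 ISRE matches: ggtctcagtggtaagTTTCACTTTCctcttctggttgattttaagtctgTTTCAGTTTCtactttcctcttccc
Rsad2, chr12:26456548-26456587, minus strand, 1 ISRE match: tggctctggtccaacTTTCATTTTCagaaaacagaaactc
Gbp2, chr3:142620589-142620628, plus strand, 1 ISRE match: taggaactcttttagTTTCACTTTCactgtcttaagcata
Igtp, chr11:58199496-58199546, plus strand, 1 GAS and 1 ISRE match: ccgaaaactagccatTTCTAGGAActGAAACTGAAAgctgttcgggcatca
Bst2, chr8:71537572-71537623, minus strand, 1 GAS and 2 ISRE matches that overlap: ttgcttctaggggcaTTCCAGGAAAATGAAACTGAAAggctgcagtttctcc
Irf1, chr11:53769909-53769947, plus strand, 1 GAS match: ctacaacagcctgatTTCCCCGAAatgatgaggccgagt

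The Isg15, Ifit1, Ifit3, Rsad2 and Gbp2 runs hold ISRE letters alone. Igtp and Bst2 hold both kinds within 1 short run, and Irf1 holds GAS letters alone.

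There were 816 control and 897 knockout barcodes, of which 3 were shared, with 6976374 and 5463434 UMIs (molecule counts). The median depth was 5851 UMIs in control and 3966 UMIs in knockout barcodes. After filtering, 804 control and 863 knockout cells were clustered without the members, the wider interferon pathway or the immunoglobulin genes, so that these genes did not draw the classes. The 7 classes named from markers were B-like (241 control and 293 knockout cells), plasma-like (47 and 0), NK-like (157 and 266), T-like (59 and 46), plasmacytoid dendritic-like (38 and 38), macrophage-like or monocyte-like (94 and 46, called macrophage-like here) and mast cell-like or basophil-like (34 and 45, called basophil-like here). The B-like class joined a follicular-like cluster led by Fcer2a and Vpreb3 (191 and 120 cells) and a cluster led by Fcrl5 and Ms4a1 (50 and 173). Prdm1 itself had 89 control and 56 knockout UMIs. The labels do not say which exons are floxed, so these counts do not check the deletion. Levels are counts per 1000000 UMIs of a class (CPM), with immunoglobulin UMIs in the total unless stated. With 1 library per genotype there is no replicate check and no test; the 95% intervals given cover counting error only. The deposited files of the libraries carry different date stamps, so a batch difference cannot be told apart from genotype.

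The members were far more abundant in macrophage-like cells than in any lymphocyte class. Summed over all 36 members, the level was 32580 CPM (32190 to 32970) in control and 33180 CPM (32550 to 33820) in knockout macrophage-like cells. Plasmacytoid dendritic-like cells came next with 15060 and 17130 CPM, followed by T-like cells with 9992 and 11420 CPM. B-like cells had 5436 and 6412 CPM, NK-like cells 4878 and 4342 CPM, and control plasma-like cells 3829 CPM. Basophil-like cells had 3305 and 4659 CPM. The order of the first 3 classes was the same in both libraries. Bst2, Ly6a and Ifi27l2a made up 75.3% and 69.0% of the plasmacytoid dendritic-like sum. The 3 members with the most UMIs made up 56.5% and 42.6% in T-like and 45.9% and 47.3% in macrophage-like cells. The order of the sums is thus not the order of each member. The B-like, NK-like, plasma-like and basophil-like classes lay within a narrow band, and basophil-like cells exceeded NK-like cells in the knockout library alone.

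**Figure D1:**
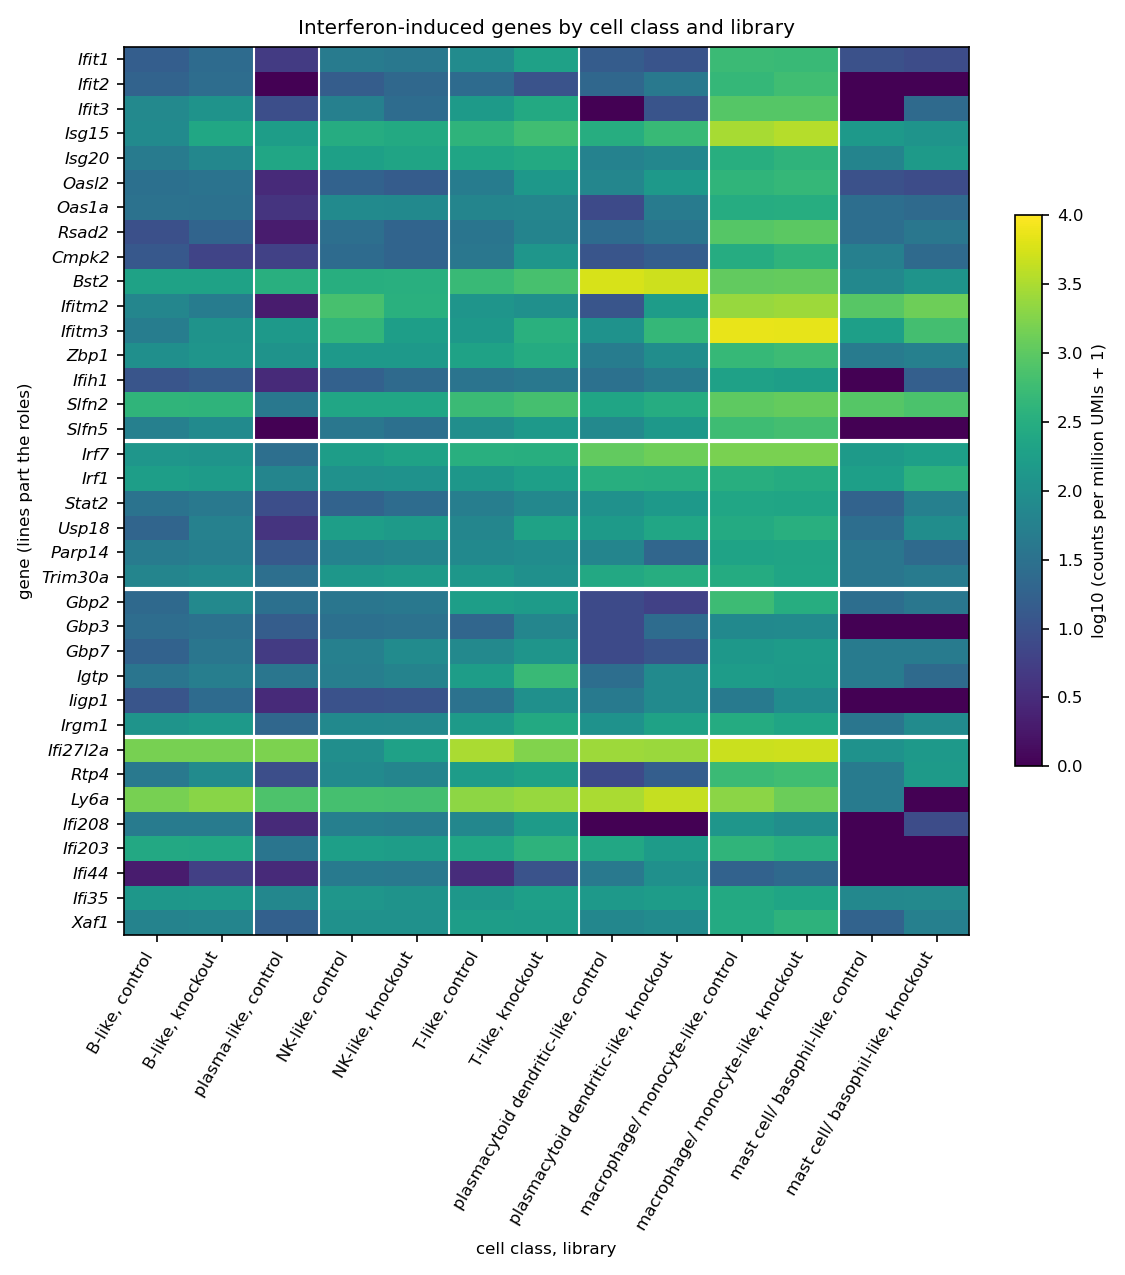
Level of each of the 36 members (rows, parted by role) in each cell class and library (columns), as log10 of CPM plus 1. The macrophage-like columns are the brightest for most rows, Bst2 and Ly6a peak in the plasmacytoid dendritic-like columns, and the basophil-like columns hold the most empty cells.

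Of the 36 members, 28 were highest in macrophage-like cells by the mean of both libraries, 5 in plasmacytoid dendritic-like cells (Bst2, Irf1, Trim30a, Ly6a and Ifi44) and 3 in T-like cells (Igtp, Iigp1 and Ifi208). Of the 10222 genes measured over the 7 classes, 14.8% were highest in macrophage-like, 21.0% in plasmacytoid dendritic-like and 20.1% in T-like cells. Among the 7 named classes alone, a member was called lineage-bound where the highest class was at least 3 times the next in each library. By that rule 11 of 36 members were bound, 10 to macrophage-like cells and 1, Bst2, to plasmacytoid dendritic-like cells, where 9.7% of all measured genes were bound to some class. A member was called shared where its highest class was at most 4 times its lowest in each library. Ifi35 alone was shared, 1 of 36 members against 16.5% of genes, and the remaining 24 members were neither. The count of bound members was 7 with per-cell means, with immunoglobulin, mitochondrial and ribosomal genes out of the denominator, or at a coarser clustering.

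The antiviral effectors carried most of the macrophage-like excess. Ifitm3, a membrane protein that blocks virus entry, had the most UMIs there, with 7243 CPM in control and 7133 CPM in knockout macrophage-like cells. The next class was NK-like in the control library (423 CPM) and basophil-like in the knockout library (634 CPM). Rsad2, the antiviral enzyme viperin, had 892 and 966 CPM in macrophage-like cells and did not exceed 62.2 CPM in either library of the other 6 named classes. Isg15, a ubiquitin-like modifier, had 2950 and 3615 CPM in macrophage-like cells, and its next class, T-like, had 394 and 594 CPM. These levels put macrophage-like cells above the other 6 classes for all 3 genes in both libraries.

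The Ifit genes encode proteins that bind foreign RNA. Ifit3 had 867 and 894 CPM in macrophage-like cells, 152 and 263 CPM in T-like cells and 74.7 and 114 CPM in B-like cells. Ifit2 had 455 and 582 CPM in macrophage-like cells, and no UMI in plasma-like cells or in basophil-like cells of either library. Ifit1 was not bound by the rule, because knockout T-like cells had 192 CPM against 513 CPM in knockout macrophage-like cells. All 3 Ifit genes were thus highest in macrophage-like cells, with T-like cells nearest for Ifit1 and Ifit3. Ifit3 has a close copy, Ifit3b, and Oas1a, Ifi203, Ifi208 and the Gbp genes belong to families with similar copies; how reads shared by copies were assigned is not given in the sources used here, and these values are uncertain to that extent.

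The other bound effectors followed the same order. Oasl2 and Oas1a, of the family of RNA-sensing synthetases, had 413 and 295 CPM in control macrophage-like cells and 459 and 305 CPM in the knockout. Cmpk2, a nucleotide kinase next to Rsad2 on chromosome 12, had 298 and 403 CPM there. Ifih1, an RNA sensor, had 194 and 173 CPM. Slfn5, a Schlafen family member, had 580 and 642 CPM, and no UMI in plasma-like or basophil-like cells. For each of these genes the next class stayed at or below 144 CPM in both libraries.

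Bst2, the tetherin that holds budding viruses at the cell surface and a standard surface mark of mouse plasmacytoid dendritic cells, broke that pattern. It had 5680 CPM in control and 4870 CPM in knockout plasmacytoid dendritic-like cells. Macrophage-like cells were next with 1081 and 1133 CPM of Bst2, and basophil-like cells were lowest with 71.5 and 115 CPM. Bst2 was not among the markers that named the class.

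Several effectors were high in more than 1 lineage. Ifitm2, a paralogue of Ifitm3, had 2418 and 2555 CPM in macrophage-like cells, 920 and 1314 CPM in basophil-like cells and 696 and 350 CPM in NK-like cells. Plasma-like cells had 1 Ifitm2 UMI among 997117. Slfn2, a Schlafen member needed for lymphocyte quiescence, had 1026 and 1130 CPM in macrophage-like and 875 and 741 CPM in basophil-like cells, which placed it among the few members abundant in basophil-like cells. Isg20, an RNA exonuclease, ranged from 45.2 CPM in control B-like cells to 403 CPM in knockout macrophage-like cells, with 234 CPM in plasma-like cells. Zbp1, a sensor of Z-form nucleic acid, ranged from 44.7 CPM in control basophil-like cells to 557 CPM in knockout macrophage-like cells. Neither Isg20 nor Zbp1 was as far apart between classes as the bound effectors.

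The regulators differed among themselves in spread, with a highest class from 4.86 times (Irf1) to 101 times (Usp18) the lowest. Irf7, the factor that drives type I interferon genes, had 1547 and 1583 CPM in macrophage-like cells and 1095 and 1328 CPM in plasmacytoid dendritic-like cells, with 339 CPM or less in the other 5 classes. Irf1, a factor strongly induced by interferon gamma, had 325 and 308 CPM in plasmacytoid dendritic-like and 323 and 289 CPM in macrophage-like cells. Its ratio of highest to lowest class was 4.86, next to the 3.57 of Ifi35 among the members. Usp18, which removes Isg15 from proteins and shuts off the type I receptor, had 280 and 330 CPM in macrophage-like cells and 3.01 CPM, from 3 UMIs, in plasma-like cells. Stat2, a subunit of the factor that binds the ISRE, had 232 and 220 CPM in macrophage-like cells and 8.02 CPM in plasma-like cells. Trim30a, an inhibitor of inflammatory signalling, and Parp14, an ADP-ribosyl transferase, had their highest means in plasmacytoid dendritic-like (285 CPM) and macrophage-like cells (212 CPM). All 6 regulators had their lowest mean in plasma-like cells, which the control library alone contained. Immunoglobulin UMIs are in the CPM total, and their part in the levels of these 6 genes was not tested. The counts of bound, shared and highest members were recomputed without immunoglobulin, mitochondrial and ribosomal genes in the denominator and are given in the last section.

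GTPases of the Gbp and Irg families attack the vacuoles of intracellular microbes and respond strongly to interferon gamma. Igtp had 165 CPM in control and 517 CPM in knockout T-like cells, and macrophage-like cells had 163 and 151 CPM. Iigp1 reached 30.8 and 101 CPM in T-like, 44.1 and 79.6 CPM in plasmacytoid dendritic-like and 42.5 and 88.1 CPM in macrophage-like cells, so its 3 highest classes were not separated. Gbp2 had 554 and 305 CPM in macrophage-like and 172 and 158 CPM in T-like cells, but 2 UMIs in control and 1 UMI in knockout plasmacytoid dendritic-like cells. Gbp7 had 135 and 154 CPM and Gbp3 77.8 and 81.8 CPM in macrophage-like cells. Irgm1 ranged from 21.1 CPM in plasma-like to 284 CPM in control macrophage-like cells.

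Among the other induced genes, Ifi27l2a and Ly6a had the most UMIs of all members in the B-like class. Ifi27l2a, a small protein of the mitochondrial and nuclear membranes, had 1495 and 1518 CPM in B-like cells, 1624 CPM in plasma-like cells and 94.9 and 194 CPM in NK-like cells. Ly6a, the surface protein Sca-1, had 3081 and 4437 CPM in plasmacytoid dendritic-like, 2064 and 2399 CPM in T-like and 1507 and 1928 CPM in B-like cells. Basophil-like cells had 5 Ly6a UMIs in control and 0 in the knockout, with an upper 95% bound of 28.2 CPM. Both genes were therefore abundant in B-like and T-like cells, but they differed in NK-like cells, where Ly6a had 666 and 631 CPM.

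Ifi203 and Ifi208 belong to the family of DNA-binding proteins on chromosome 1. Ifi203 had 255 and 251 CPM in B-like cells and no UMI in basophil-like cells of either library, and Ifi208 had no UMI in plasmacytoid dendritic-like cells of either library. Rtp4, a chaperone with antiviral action, had 534 and 595 CPM in macrophage-like cells and 6.78 and 14.9 CPM in plasmacytoid dendritic-like cells. Xaf1, a binder of an apoptosis inhibitor, had 280 and 381 CPM in macrophage-like cells. Ifi35 ranged from 69.2 CPM in plasma-like cells to 267 CPM in control macrophage-like cells. Ifi44 had 1 and 5 UMIs in B-like cells, and 40.7 and 99.5 CPM in plasmacytoid dendritic-like cells.

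Clusters that the markers did not name firmly carried high levels too. A cluster led by Ace and Ear2 (24 control and 14 knockout cells) had summed levels of 19410 and 22200 CPM, with Ifitm3 at 6907 and 5861 CPM. A cluster led by S100a9 and S100a8 (74 and 16 cells) had 20370 and 16490 CPM, with Ifi27l2a at 4391 and 3925 CPM. Only 3 of 7 neutrophil markers were detected in the S100a9 and S100a8 cluster, and it is called by its genes. A cluster led by Sema6d and Tnfsf10 (11 and 62 cells) had 9230 and 7725 CPM, and cycling cells of mixed lineage 4091 and 4442 CPM. The Ace and S100a9 clusters thus lay between plasmacytoid dendritic-like and macrophage-like cells in the control library, and the Sema6d cluster lay between NK-like and T-like cells in both libraries. None of these clusters entered the lineage-bound rule. In the control S100a9 cluster Rsad2 had 456 of 411793 UMIs, a higher share than its 734 of 822637 in control macrophage-like cells. Ifitm3 in the Ace cluster was within 3-fold of macrophage-like cells in both libraries. Rsad2 and Ifitm3 were therefore bound to macrophage-like cells among the 7 named classes only.

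The genotype comparison used, in each class, the members that reached 30 UMIs in sum, and a ratio of knockout over control of at least 2-fold in either direction was counted. In B-like cells 7 of 32 measured members were at least 2-fold higher in the knockout (21.9%) and 0 were lower, where 2.65% of all genes measured were higher and 1.98% lower. The median log2 ratio was 0.29 for members and -0.06 for all genes, and 25 of the 32 members were above 1. Gbp2 had 22.1 CPM in control and 75.4 CPM in knockout B-like cells, a ratio of 3.41 (2.09 to 5.81). Usp18 had 18.9 and 57.2 CPM, a ratio of 3.02 (1.76 to 5.44). Isg15 had 82.0 and 238 CPM, a ratio of 2.90 (2.24 to 3.78). The 4 others were Ifitm3 (49.4 and 114 CPM, ratio 2.30), Iigp1 (10.5 and 23.8 CPM, ratio 2.27), Gbp7 (16.8 and 36.2 CPM, ratio 2.15) and Rtp4 (41.0 and 84.9 CPM, ratio 2.07). All 7 intervals lay above 1, although that of Iigp1 began at 1.05. The makeup of the class differed between the libraries, since the Fcrl5 cluster gave 50 of 241 control and 173 of 293 knockout cells. The summed member level in control was 7464 CPM in the Fcrl5 and 4086 CPM in the follicular-like cluster. The class ratio of Isg15 was above its ratio in either cluster, 2.26 and 2.02.

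A few cells with weak B cell markers entered these ratios. They numbered 6 control and 10 knockout cells, of which 2 and 5 lay in a conventional dendritic-like cluster once interferon genes entered the clustering, and they carried 7.35% and 12.3% of the B-like member UMIs. Without them, 3 members were at least 2-fold higher (2.27% of all genes) and 0 lower. These were Usp18 (16.2 and 57.2 CPM, ratio 3.53, 1.94 to 6.87), Gbp2 (17.4 and 54.0 CPM, ratio 3.11, 1.73 to 5.96) and Isg15 (62.5 and 150 CPM, ratio 2.40, 1.74 to 3.34). Rtp4 was just under the threshold at 1.96 (1.33 to 2.94), and Ifitm3 had a ratio of 1.46 (0.922 to 2.34). Ifitm2 shows how much such cells can hold, since 63 of its 64 UMIs in control B-like cells lay in the cells left out. In B-like cells macrophage markers summed to 792 CPM (control) and 1343 CPM (knockout), which is 4.05% and 6.37% of their level in macrophage-like cells, with 4 of 10 detected in control and 6 of 10 in the knockout, and with C1qa, C1qc, Csf1r and Ms4a7 at 0 in both. Their part in the member ratios was not tested.

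The 2 B-like clusters did not show the same picture. In the follicular-like cluster all 23 measured members were above 1, 4 of them by at least 2-fold, where 1.89% of genes were at least 2-fold higher and 2.77% lower, and the median log2 ratio was 0.38 against -0.05 for all genes. Usp18 had 19.3 CPM in control and 64.1 CPM in knockout follicular-like cells, a ratio of 3.33 (1.52 to 7.68). Ifit3 had 78.8 and 189 CPM (ratio 2.40, 1.60 to 3.62), Rtp4 45.6 and 109 CPM (ratio 2.39, 1.39 to 4.15) and Isg15 36.8 and 83.3 CPM (ratio 2.26, 1.23 to 4.23). Of the 59 knockout Ifit3 UMIs 1 cell held 23, and without the top Ifit3 cell of each library the ratio was 1.95 (1.19 to 3.21). When the cell with most member UMIs was left out of each library, 2 members were at least 2-fold higher. The abundant Ifi27l2a had 981 and 1442 CPM, a ratio of 1.47 (1.30 to 1.67), and Ly6a had 911 and 1352 CPM, a ratio of 1.48 (1.30 to 1.69). The others of the 6 members with the most UMIs there, Slfn2, Ifi203, Irf1 and Bst2, had ratios of 1.17, 1.28, 1.23 and 1.32, each with an interval that held 1. None of the cells with weak B cell markers lay in this cluster.

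In the Fcrl5 cluster 4 of 30 measured members were at least 2-fold higher and 1 lower, where 3.8% of genes were higher and 2.91% lower, and 16 of 30 were above 1. The median log2 ratio was 0.06 against -0.06 for all genes. Isg15, Usp18, Gbp2 and Rtp4 had ratios of 2.02, 2.95, 2.29 and 2.18, and Ifitm2 had 166 and 66.6 CPM, a ratio of 0.401. Among the 44 control and 163 knockout cells of that cluster that kept clear B cell markers, 1 of 27 members was higher (4.04% of all genes) and 1 lower (2.49%). Usp18 had 3 UMIs and 35 UMIs there, a ratio of 5.27 (1.66 to 26.8). Irf1 had 249 and 108 CPM, a ratio of 0.433 (0.307 to 0.609). Ifitm2 kept 0 and 6 UMIs in these cells, too few to be measured. Ifi27l2a and Ly6a, both above 1 in the follicular-like cluster, were below 1 in these cells, at 0.573 (0.522 to 0.630) and 0.744 (0.683 to 0.811). The difference between the clusters was not tested.

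Much of the Ifit1, Ifit3 and Isg15 signal of B-like cells lay in few cells. When the interferon genes were allowed to enter the clustering, some B-like cells formed a cluster of their own, called interferon-led here. Since the members helped to draw it, their values in it are a description. It took 17 of 241 B-like cells in control (7.05%, 4.16% to 11.1%) and 18 of 293 in the knockout (6.14%, 3.68% to 9.54%). The interferon-led cells held 32.4% (control) and 31.9% (knockout) of the member UMIs of the class, but 9.81% and 10.5% of all its UMIs. Of the Ifit3 UMIs they held 77.5% and 89.1%, of Ifit1 92.9% and 84.0%, and of Isg15 52.6% and 69.9%. Slfn2 (17.9% and 18.2%), Irf1 (12.1% and 20.2%) and Gbp3 (12.0% and 12.9%) were much closer to the share of all UMIs. Slfn2 in both libraries and Irf1 in the knockout were still above that share. The intervals of the cell shares are over cells of 1 library each, so those shares were not compared between genotypes. Most Ifit1 and Ifit3 UMIs thus lay in the interferon-led cells, and most Slfn2, Irf1 and Gbp3 UMIs lay in the other B-like cells. Ifit2 was less one-sided in control, with 35.3% against 81.5% in the knockout. Macrophage markers summed to 1608 CPM (control) and 3303 CPM (knockout) in this cluster, against 703 and 1112 CPM in the other B-like cells, and B cell markers to 10980 and 6399 CPM; their part was not tested. In the other B-like cells, 2 of 25 measured members were at least 2-fold higher in the knockout and 1 lower, where 2.62% of genes were higher and 1.97% lower. The higher members were Gbp2 (ratio 2.32, 1.25 to 4.53) and Rtp4 (ratio 2.31, 1.37 to 4.03), and the lower was Ifitm2 (ratio 0.371). Ifitm2 had 64 control UMIs here, but 1 control and 6 knockout UMIs among B-like cells with clear B cell markers.

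**Figure D2:**
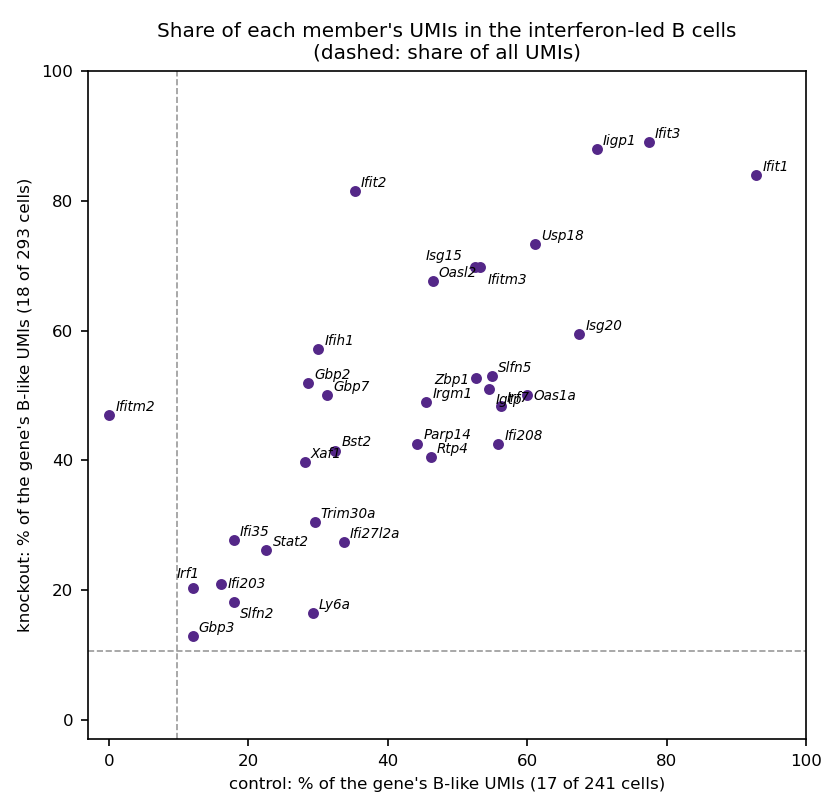
Percent of each member's B-like UMIs that lay in the interferon-led cells, control on the horizontal and knockout on the vertical axis, for members shown with enough UMIs in both libraries; dashed lines mark the share of all UMIs (9.81% and 10.5%). Ifit1 and Ifit3 lie at the upper right, Slfn2, Irf1 and Gbp3 at the lower left, and Ifitm2 at 0% in control and 46.9% in the knockout. Gbp3 lies near the dashed lines, and Slfn2 and knockout Irf1 lie above them.

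At equal depth the same spread could be read per cell. After each cell was thinned to 1500 UMIs, which left out 4 control and 10 knockout B-like cells, the median was 4 member UMIs per control and 7 per knockout B-like cell, with ranges of 0 to 72 and 0 to 55. The control and knockout medians were 4 and 6 in the follicular-like cluster but 9 and 6 in the Fcrl5 cluster. The share of the Fcrl5 cluster in the class also differed between the libraries. At least 10 different members were found in 13 of 237 B-like cells in control (5.49%, 2.95% to 9.20%) and in 22 of 283 in the knockout (7.77%, 4.94% to 11.5%). Each interval is over cells of 1 library, so the shares were not compared between genotypes. In macrophage-like cells the shares were 73 of 90 (81.1%) and 34 of 43 (79.1%), and in T-like cells 16 of 57 (28.1%) and 16 of 42 (38.1%). In NK-like cells they were 22 of 157 (14.0%) and 28 of 249 (11.2%), and in plasmacytoid dendritic-like cells 4 of 38 (10.5%) and 6 of 35 (17.1%). In plasma-like cells the share was 0 of 47, and in basophil-like cells 0 of 31 and 4 of 42 (9.52%). Immunoglobulin UMIs counted towards the 1500 in plasma-like cells. Thinning left out 3 control and 3 knockout basophil-like cells. At 1000 UMIs per cell, which left out 1 of each library, the most members in 1 basophil-like cell were 20 in control and 10 in the knockout. Broad member expression was thus the common state of macrophage-like cells and that of a minority in every lymphocyte class.

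**Figure D3:**
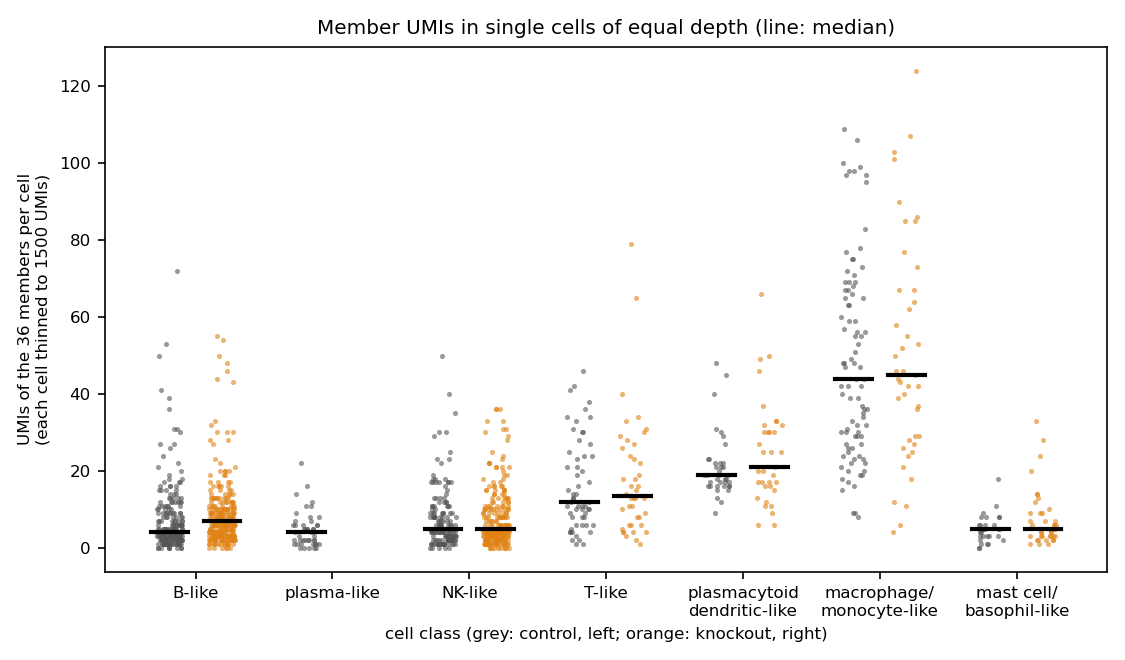
UMIs of the 36 members in each cell (points) after thinning to 1500 UMIs, by cell class and library, with the median as a line. Macrophage-like cells have medians of 44 and 45 UMIs, plasmacytoid dendritic-like cells 19 and 21, and B-like cells 4 and 7 with a tail of high cells in both libraries.

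In T-like cells 8 of 31 measured members were at least 2-fold higher in the knockout (25.8%) and 0 lower, where 3% of genes were higher and 3.15% lower. The median log2 ratio was 0.51 for members and 0.03 for all genes. The GTPase Igtp had 165 and 517 CPM, a ratio of 3.13 (2.31 to 4.27), from 29 of 59 control and 30 of 46 knockout cells with a UMI before thinning. Cmpk2 had 37.4 and 124 CPM (ratio 3.33, 1.74 to 6.54), Iigp1 30.8 and 101 CPM (ratio 3.27, 1.58 to 6.94) and Usp18 68.2 and 201 CPM (ratio 2.95, 1.81 to 4.85). Oasl2, Ifit1 and Ifi208 had ratios of 2.90, 2.29 and 2.24. The eighth, Ifitm3, had 136 and 340 CPM, but 1 knockout cell held 55 of its 71 UMIs. Without the top Ifitm3 cell of each library the ratio was 0.808 (0.428 to 1.45). The more abundant Ly6a, Ifi27l2a, Slfn2 and Bst2 were within 2-fold, and Ifi27l2a was lower, with 3062 and 1772 CPM.

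The T-like class joined a cluster led by the gamma chain segment Tcrg-V6 and Cd163l1 (34 and 36 cells) and a cluster led by Penk, Trbv17 and Cd8a (25 and 10 cells), so its makeup differed between the libraries. The clusters differed in level: Igtp had 338 CPM in the control Tcrg-V6 cluster, and Ifi27l2a had 1320 CPM there against 4092 CPM in the control Penk and Cd8a cluster. Within the Tcrg-V6 cluster 6 of 27 members were at least 2-fold higher (22.2%) and 1 lower, where 1.58% of genes were higher and 2.47% lower. The 6 were Cmpk2, Usp18, Iigp1, Igtp, Oasl2 and Ifi208, with ratios of 3.72, 2.49, 2.34, 2.30, 2.08 and 2.07. Ifitm3 was lower there, with 219 and 95.1 CPM, against a higher value in the whole class. At a coarser clustering, which moved the Penk and Cd8a cells to cycling cells and brought another T-like cluster into the class, 0 members were at least 2-fold higher and 2 lower, and the median log2 ratio was 0.07.

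In plasmacytoid dendritic-like cells 4 of 21 measured members were at least 2-fold higher in the knockout (19.0%) and 0 lower, where 2.02% of genes were higher and 1.63% lower, and the median log2 ratio was 0.46 against -0.02. Ifitm3 had 108 and 468 CPM (ratio 4.31), Ifitm2 10.2 and 159 CPM (ratio 15.7, 4.90 to 79.9, from 3 and 32 UMIs), Ifi44 40.7 and 99.5 CPM (ratio 2.45) and Oasl2 67.8 and 139 CPM (ratio 2.06, and 1.89 without its top cell in each library). A single knockout cell with few markers of the class held 75 of the 94 Ifitm3 UMIs and 13.6% of all member UMIs; its 2 macrophage marker UMIs equalled the class median. Without it, Ifi44 alone of 18 measured members was at least 2-fold higher (1.88% of all genes) and 0 were lower (1.76%), with 40.7 and 105 CPM, a ratio of 2.58 (1.20 to 5.80), and the median log2 ratio was 0.25. Ifitm3 was then at 108 and 99.8 CPM, a ratio of 0.920 (0.493 to 1.67). Ifitm2 differed, since that cell held 13 of its 32 knockout UMIs. Without that cell Ifitm2 kept 3 control and 19 knockout UMIs, too few to be counted as measured. Its ratio was still 9.82 (2.89 to 51.8). The most abundant members, Bst2, Ly6a, Ifi27l2a and Irf7, were within 2-fold with and without that cell.

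NK-like cells, the class with the most UMIs in all, had a median log2 ratio of -0.02 over all 36 members, against 0.01 for all genes. At least 2-fold, 1 member was higher and 2 lower, where 0.82% of genes were higher and 0.82% lower. Ifitm3 had 423 and 173 CPM, a ratio of 0.410 (0.363 to 0.463), and Ifit3 54.7 and 24.8 CPM, a ratio of 0.454 (0.322 to 0.633). Ifi27l2a had 94.9 and 194 CPM, a ratio of 2.04 (1.71 to 2.44). Its log2 ratio of 1.03 was 0.36 at the coarser clustering, 0.53 with per-cell means, 0.56 with no barcode filter and 0.87 without the cell with most member UMIs in each library, so that no member was then at least 2-fold higher. At the coarser clustering and with no barcode filter, a cluster led by Gzmd, Gzme and Gzmg was not named. Its cells were then outside the NK-like class, so these values cover other cells. Ifitm2, just inside the threshold, had 696 and 350 CPM. Most Ifitm2 and Ifitm3 came from the cluster led by Gzmg and Gzmd (62 and 111 cells), with 1343 of 1349 control Ifitm2 UMIs. In that cluster 2 of 33 members were at least 2-fold higher and 3 lower, where 1.1% of genes were higher and 1.07% lower. Ifitm2 had 1054 and 506 CPM, Ifitm3 575 and 238 CPM, Ifi27l2a 76.1 and 204 CPM and Stat2 10.2 and 20.9 CPM. Ifit3 had 43 and 10 UMIs, of which 1 control cell held 24. In the cluster led by Ccl5 and Gzma (95 and 155 cells) 0 of 34 members were at least 2-fold higher and 1 lower, Ifitm3, with 130 and 37.3 CPM, where 1.39% of genes were higher and 1.17% lower. Isg15, Bst2, Ly6a and Slfn2 had ratios within 2-fold in both NK-like clusters.

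In macrophage-like cells, which had the highest levels, 1 of 35 measured members was at least 2-fold higher and 0 lower, where 1.91% of genes were higher and 2.94% lower, and the median log2 ratio was 0.07 against 0.00. That member was Iigp1, with 35 and 28 UMIs (42.5 and 88.1 CPM, ratio 2.07, 1.21 to 3.50), of which 11 knockout UMIs lay in 1 cell. Without its top cell in each library it had 30 and 17 UMIs, and the interval of the ratio held 1 (0.777 to 2.81). The sum of all members had a ratio of 1.02 (0.996 to 1.04). Of the 6 members with the most UMIs, Ifitm3 (7243 and 7133 CPM), Ifi27l2a (4765 and 4931 CPM), Ifitm2 (2418 and 2555 CPM) and Irf7 (1547 and 1583 CPM) were nearly the same in both libraries. The other 2, Isg15 (2950 and 3615 CPM) and Ly6a (1989 and 1265 CPM), were further apart but within 2-fold. Gbp2, at 554 and 305 CPM, was the lowest ratio among the members and did not reach 2-fold.

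In basophil-like cells 7 members had enough UMIs, and 2 were at least 2-fold higher and 0 lower, where 1.79% of genes were higher and 2.06% lower. Ifitm3 had 179 and 634 CPM, a ratio of 3.55 (2.16 to 6.11), with 1 of 45 knockout cells holding 26 of 83 UMIs. Irf1 had 179 and 374 CPM, a ratio of 2.10 (1.22 to 3.72), and 1.89 (1.04 to 3.56) without its top cell in each library. The abundant Ifitm2 and Slfn2 were within 2-fold, at 920 and 1314 CPM and at 875 and 741 CPM. The knockout library had no plasma-like cells, so plasma-like cells were not compared. When cells with weak markers of their own class were left out, the counts stayed at 1 higher and 2 lower in NK-like cells (0.839% and 0.839% of genes), 8 and 0 in T-like cells (2.89% and 3.36%), 1 and 0 in macrophage-like cells (1.78% and 3.09%) and 2 and 0 in basophil-like cells (1.79% and 1.97%). In the cycling cluster 2 of 26 members were higher, Ifi27l2a and Gbp2 with ratios of 4.42 and 2.42, and 2 lower, Ifitm2 and Ifi44 with ratios of 0.235 and 0.278, where 3.48% of genes were higher and 1.91% lower. The markers of this cluster moved as well. B cell markers had 2 UMIs in control (2 of 10 detected, with Cd79a, Ms4a1 and Pax5 among those at 0) and 339 in knockout cells (10 of 10), and NK cell markers 4713 and 3793 CPM. Their part in these ratios was not tested.

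**Figure D4:**
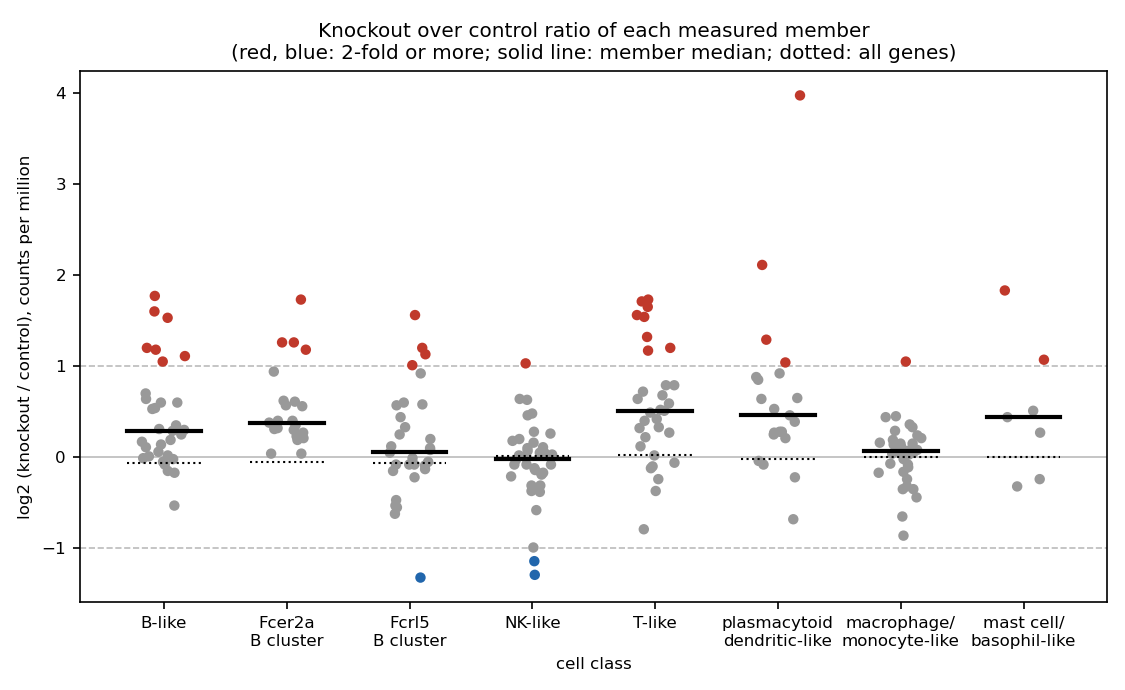
Log2 ratio of knockout over control for each measured member (points) by class, with the 2 B-like clusters shown apart; red and blue mark ratios of at least 2-fold, solid lines the member medians and dotted lines the medians of all genes. Member medians lie at 0.29 in B-like, 0.38 in follicular-like, 0.51 in T-like and 0.46 in plasmacytoid dendritic-like cells, and at -0.02 and 0.07 in NK-like and macrophage-like cells; the high plasmacytoid dendritic-like points are Ifitm2 and Ifitm3, which rest on few cells.

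The wider pathway was read from a list of 89 ligands, receptors, kinases, factors, sensors, inhibitors and other targets, of which 86 were matched. No UMI of a type I or type III interferon gene on the list (Ifnb1, Ifna1, Ifna2, Ifna4, Ifna5, Ifne, Ifnl2 and Ifnl3) was found in any of the 7 classes of either library. Transcripts of these genes were therefore not detectable at this depth. Ifng, the type II ligand, was found in NK-like cells at 92.9 and 87.3 CPM and in T-like cells at 134 and 225 CPM, and did not exceed 3.15 CPM in the other classes.

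Receptor subunits were distributed unequally. Ifnar2 was highest in plasmacytoid dendritic-like cells, with 563 and 408 CPM, and Ifnar1 was at 183 and 169 CPM there. Ifngr1 was higher in NK-like (527 and 627 CPM) and T-like cells (554 and 613 CPM) than in the other classes. Ifngr2, its partner, had 0 UMIs in NK-like cells of either library, while macrophage-like cells had 188 and 154 CPM. NK-like cells thus had high Ifngr1 and no detected Ifngr2.

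Of the kinases, Jak1 was found in every class, from 28.1 CPM in plasma-like cells to 293 and 310 CPM in NK-like cells, and Jak2 was highest in basophil-like cells (286 and 321 CPM). Irf8, a lineage factor of plasmacytoid dendritic cells, had 3148 and 3104 CPM in plasmacytoid dendritic-like cells and 1037 and 1218 CPM in NK-like cells. Tlr7, a sensor of RNA, was highest in plasmacytoid dendritic-like cells (132 and 174 CPM). The inhibitor Socs1 had 354 and 387 CPM in macrophage-like and 277 and 445 CPM in T-like cells.

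The pathway counts are set against the same shares of all genes. In B-like cells 3 of 58 measured were higher (2.65% of all genes) and 0 lower: Tlr7 (10.5 and 30.5 CPM, ratio 2.90, 1.39 to 6.62), Ifit3b (8.42 and 24.8 CPM, ratio 2.95, 1.30 to 7.53) and Gbp6 (19 and 54 UMIs, ratio 2.58). In T-like cells 4 of 46 were higher (3% of all genes) and 0 lower: Ifit3b, Oas3, Mndal and Ube2l6, with ratios of 2.50, 2.32, 2.18 and 2.05. In NK-like, plasmacytoid dendritic-like and basophil-like cells 0 of 62, 0 of 34 and 0 of 11 passed in either direction. In macrophage-like cells 0 of 68 were higher and 2 lower, a share near the 2.94% of all genes that were lower. One was Cxcl9, a T cell attractant induced by interferon gamma, with 176 and 50.3 CPM from 145 and 16 UMIs, a ratio of 0.286 (0.159 to 0.480). The other was Uba7, the enzyme that activates Isg15, with 53.5 and 22.0 CPM, a ratio of 0.412 (0.157 to 0.922). Cxcl10, a related chemokine that also responds to type I interferon, had 1974 and 2077 CPM there, so the pair differed in ratio within the same cells.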

How the data were processed

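Single-cell 5′ expression libraries and B cell receptor libraries were made from tumour-infiltrating cells, 1 of each per genotype. The deposited values are raw UMI counts, 1 for each gene in each cell barcode. The submitters' processing notes name Cell Ranger 6.0.0 and the build GRCm38 (mm10). The members and gene lists were chosen with earlier results of these data known. Barcodes with under 200 genes, over 10% mitochondrial UMIs, a Scrublet doublet call (1 control and 5 knockout) or 2 heavy chains (0 and 6) were left out. Cells were clustered in Scanpy 1.11.5 (2000 variable genes, 30 components, 15 neighbours, Leiden resolution 1) without member, pathway and immunoglobulin genes, giving 14 clusters. Clusters were named from marker lists by a rule set after clusters had been seen. Counts were summed per class and library. Intervals are exact Poisson (levels), exact conditional binomial (ratios) and Clopper-Pearson (shares), from SciPy 1.17.1. The ratio step was run on simulated class sums with planted 4-fold changes and independent Poisson counts. It recovered 99.4% of the changes in B-like and 98.3% in T-like sums, and called 1.4% and 2.38% of unchanged genes. UMIs gathered in single cells were not simulated, so the run does not cover that case. Named members are all those past 2-fold, the up to 6 with most UMIs per class and those bound to a lineage; other members are given by level. Of the pathway list, genes past 2-fold and up to 3 per role were named. Alternatives covered clustering, filters, scaling, weighting, thresholds and depth. The 3 pathway genes that were not matched are not analysed here, and 1 matched gene is not reported here.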

Additional observations from a re-analysis of the deposited data

Results flagged for a closer look

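Ifitm3 was lower in knockout NK-like cells (log2 ratio -1.29) and higher in 4 other classes, so its ratio had opposite signs in the same contrast. The log2 ratio differed from that of NK-like cells by 2.49 in B-like cells, 2.61 in T-like cells, 3.40 in plasmacytoid dendritic-like cells and 3.12 in basophil-like cells. With 1 library per genotype these differences were not tested, and the sign did not hold in every setting. Without the top Ifitm3 cell of each library the log2 ratio was -0.31 in T-like, 0.68 in plasmacytoid dendritic-like, 0.79 in B-like, 1.79 in basophil-like and -1.40 in NK-like cells. In T-like cells it was also -0.07 with per-cell means and -0.52 at the coarser clustering. Without cells of weak class markers the plasmacytoid dendritic-like ratio was 0.920, and the B-like ratio was 1.46 with an interval that held 1. Single knockout cells held 55 of 71 Ifitm3 UMIs in T-like cells, 75 of 94 in plasmacytoid dendritic-like cells, 42 of 119 in B-like cells and 26 of 83 in basophil-like cells, whereas the top NK-like cell held 105 of 819 control UMIs and 74 of 391 knockout UMIs.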

How the results depend on the processing

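No paired analysis was possible because each genotype has 1 expression library. There were 9 alternative settings and 3 chosen after seeing the data, and each result was recomputed under those that apply to it. The 3 left out the interferon-led B-like cells, cells with weak markers of their class, or each called member's own top cell. The counts of bound, shared and highest members were not recomputed at 15 UMIs or without the top cell. Where a cause is not evident from the alternative itself, it was not tested. Of the comparisons' counts, medians and shares, 210 recomputed values stayed near the reported one and 48 moved. In B-like cells the 7 members at least 2-fold higher became 2 without the interferon-led cells, 3 with clear class markers, 2 with interferon genes in the clustering and 4 with per-cell means, and the 0 lower became 1 without the interferon-led cells, at 15 UMIs and with interferon genes in the clustering. With interferon genes in the clustering, the interferon-led and conventional dendritic-like cells fell outside the B-like class. That setting therefore largely repeats the one without the interferon-led cells. The same holds for the values of the follicular-like and Fcrl5 clusters and the B-like sign changes given below for that setting. In the Fcrl5 cluster the 4 higher became 1 with clear markers, 7 at 15 UMIs and 2 with per-cell means, and the 1 lower became 0 at resolution 0.5, 2 with interferon genes in and 4 with per-cell means. In the follicular-like cluster the 4 higher became 2 with interferon genes in, with per-cell means and without the top cell, and the 0 lower became 1 at 15 UMIs. In NK-like cells the 1 higher became 0 at resolution 0.5, with per-cell means, with no barcode filter and without the top cell, and the 2 lower became 1 at resolution 0.5 and with per-cell means. At resolution 0.5 and with no barcode filter the cluster led by Gzmd, Gzme and Gzmg was not named and left the NK-like class. In T-like cells resolution 0.5 moved the median log2 ratio from 0.51 to 0.07, the 8 higher to 0 and the 0 lower to 2; the higher count was 4 with interferon genes in and 3 with no barcode filter, and the lower count 1 with per-cell means. In plasmacytoid dendritic-like cells the median went from 0.46 to 0.23 without the top cell, the 4 higher became 1 without it or with clear markers, and the 0 lower became 1 at 15 UMIs. In macrophage-like cells the 1 higher became 0 with per-cell means and the 0 lower became 1 without the top cell; in basophil-like cells the 2 higher became 6 at 15 UMIs and the 0 lower became 1 with per-cell means. Members highest in T-like cells went from 3 to 6 at resolution 0.5 and 5 with per-cell means, and 1 was highest in plasma-like cells without immunoglobulin, mitochondrial and ribosomal genes. Bound members went from 11 to 7 with that denominator, at resolution 0.5 and with per-cell means, and the 1 shared member became 2 with that denominator and 0 with per-cell means. The share of member UMIs in the 10% of control cells with the most went, at 1000 UMIs per cell, from 25.4% to 28.4% in T-like, from 20.6% to 22.3% in macrophage-like and from 29.9% to 52.7% in basophil-like cells. Log2 ratios that changed sign were those of Ifit1 in T-like cells (-0.28 at resolution 0.5), Ifitm3 in T-like cells (-0.52 at resolution 0.5, -0.07 with per-cell means and -0.31 without its own top cell), Ifitm3 in plasmacytoid dendritic-like cells (-0.12 with clear markers and -0.18 without the top cell), and, with interferon genes in the clustering, Iigp1 in B-like cells (-0.11) and Isg15 in the Fcrl5 cluster (-0.31). Depth limits the basophil-like class most, where 7 of 36 members reached 30 UMIs.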
